A study of Mus musculus with 8 samples.

Results

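Irs1 and Irs2, the 2 insulin receptor substrates examined here, were described by the peaks of trimethylated lysine 4 of histone H3 (H3K4me3) that overlapped a fixed window around each gene on mouse build mm9. The Irs1 window ran from 82276000 to 82292000 on chromosome 1, with the gene start near 82288000. The Irs2 window ran from 10998000 to 11013000 on chromosome 8, with the gene start near 11008500. Both genes lie on the minus strand, so positions inside the gene have lower coordinates, and distances below are counted from these approximate starts. The windows held 34 of the 74232 peaks in the 4 deposited lists, 21 at Irs1 and 13 at Irs2. They were chosen with the contrast between the genotypes already known, so the values of both loci are a description and carry no p-value.

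Brains of mouse embryos at E12.5 (embryonic day, when neural progenitors divide) were compared between 2 groups, each with 2 H3K4me3 libraries. The wild type (WT) group were controls without Cre. The double knockout (dKO) group lacked Lats1 and Lats2 through Nestin-Cre, a recombinase driven mainly in neural progenitors, so other cells of the brain may keep both genes. All animals had a mixed strain background, and the labels name no animal for a library, although the protocol handled each brain singly. Only dKO carried Cre, so an effect of Cre and the loss of the kinases cannot be told apart.

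The insulin receptor and the IGF1 receptor phosphorylate insulin receptor substrates on tyrosine, and the substrates then recruit phosphoinositide 3-kinase and adaptors of the Ras pathway. Irs1 and Irs2 are the widely expressed members of the family. Irs1 is tied to body growth, and Irs2 to beta cell survival and to brain growth. In both genes nearly all of the coding sequence sits in a long first exon. Exon limits on mm9 were not used here, so the reach of the mark is given as a distance from the start. H3K4me3 is deposited at active promoters and usually stays within a narrow zone around the start, with a minority of genes carrying a broad domain. Lats1 and Lats2 are Hippo pathway kinases, which keep the coactivators YAP and TAZ in check; YAP and TAZ act through TEAD factors on DNA.

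The 250 bases upstream of the annotated start of each gene are shown because a peak covered the start position of both genes in all 4 libraries. They are from RefSeq (GRCm38.p6, minus strand, written 5′ to 3′). That build differs from the mm9 of the peaks, so the 2 were not joined by position. Capitals mark every match, on either strand, to CATTCC (the core letters of the TEAD motif), to CACGTG (the E-box of basic helix-loop-helix factors) and to TGTTTT (core letters of the insulin response element read by FOXO factors). The last 2 motifs were chosen after the sequences had been seen.
Irs1: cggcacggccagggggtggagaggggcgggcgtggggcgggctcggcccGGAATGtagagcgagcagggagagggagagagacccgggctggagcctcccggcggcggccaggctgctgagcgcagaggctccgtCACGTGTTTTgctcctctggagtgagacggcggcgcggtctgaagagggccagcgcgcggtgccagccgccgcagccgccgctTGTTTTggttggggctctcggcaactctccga
Irs2: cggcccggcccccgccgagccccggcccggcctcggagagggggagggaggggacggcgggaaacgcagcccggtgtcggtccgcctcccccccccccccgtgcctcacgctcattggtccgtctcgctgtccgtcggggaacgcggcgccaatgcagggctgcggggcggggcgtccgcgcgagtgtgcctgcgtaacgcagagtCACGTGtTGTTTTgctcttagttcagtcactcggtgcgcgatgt
Both stretches were rich in CpG, with 28 CpG in Irs1 and 34 in Irs2 against a median of 6 over 32851 promoters of the table. At least as many CpG as in Irs1 occurred in 7.61% of promoters, and as in Irs2 in 3.53%. Their GC content was 72.4% and 72.8%, against a median of 52.4%. Each held 1 CACGTG, a motif present in 6.02% of promoters, 115 bases before the start in Irs1 and 44 bases before it in Irs2. No run shared by the pair was longer than GTCACGTGTT, which contains the E-box and occurred in 23 promoters (0.070%). A shared run of equal length began at the TGTTTT 111 bases before the Irs1 start and 37 bases before the Irs2 start. Irs2 and Irs4, the X-linked member of the family, shared the longer run GTCACGTGTTGTTTTGC, found in 2 of the 32851 promoters. TGTTTT occurred 2 times in Irs1, 111 and 32 bases before the start, and the first of these overlaps the E-box by its letters TG. Irs2 had 1 TGTTTT, 37 bases before the start, and 19.8% of promoters held the motif. CATTCC had 1 match in Irs1, on the reverse strand 201 bases before the start, and 0 in the Irs2 stretch, and it occurred in 12.6% of promoters. These matches describe letters and say nothing of binding.

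The lists held 17367 to 19486 peaks and were shorter in dKO, and read depth was unknown. The deposited score has no named scale, and its median was lowest in dKO replicate 2 (230, against 312 to 338.5 in the other libraries). Over the 13420 domains with a peak in all 4 libraries, the median log2 ratio of dKO to WT base pairs was -0.13. A domain here is a set of peaks from any list that lie within 2000 bp of each other. No annotation of mm9 was used here, so peaks at Lats1 and Lats2, markers of brain cell types, and the rest of the insulin pathway were not analysed here. A change in the share of cells that carry the mark and a change within each cell cannot be told apart in whole brain chromatin.

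At Irs2 the called H3K4me3 peaks covered more sequence in dKO, and the difference lay inside the gene. Peaks covered 5561 and 6193 bp of the Irs2 window in WT replicates 1 and 2, and 7962 and 7299 bp in dKO replicates 1 and 2. Both dKO libraries were above both WT libraries, with 1106 bp between the nearest values. The means were 5877 ± 447 bp in the WT pair and 7630.5 ± 469 bp in the dKO pair (SD, n = 2 each), 1.30-fold higher in dKO. Among all 13420 domains, both dKO libraries were above both WT libraries in 3.48% and below them in 41.7%. Divided by each library's median over shared domains, the values were 5412.8 and 5758.6 bp in the WT pair and 8007.7 and 8084.0 bp in the dKO pair. On that scale 22.5% of all domains had both dKO libraries on top.

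**Figure D1:**
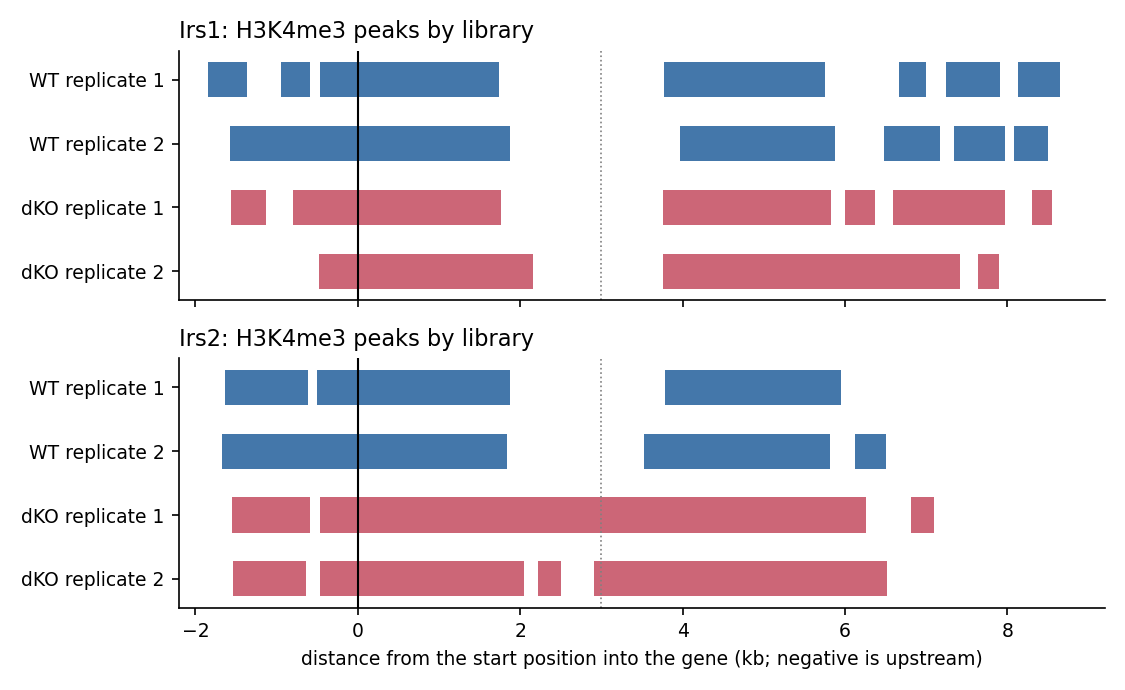
H3K4me3 peaks at Irs1 (upper panel) and Irs2 (lower panel) in the 4 libraries, by distance from the start position into the gene in kb, with WT in blue and dKO in red. The solid line marks the start position and the dotted line 3000 bp into the gene. At Irs2 the WT libraries leave 1912 and 1682 bp without a peak between the start and the inner block, and in dKO replicate 1 a single peak of 6726 bp crosses this stretch.

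In WT the mark at Irs2 came as a block at the start and a second block inside the gene. WT replicate 1 had a peak of 2378 bp over the start, from 11006624 to 11009001, an upstream peak of 1018 bp, and an inner peak of 2165 bp from 11002547 to 11004711. In WT replicate 2 the upstream and start peaks formed a single peak of 3512 bp, from 11006662 to 11010173. Its inner peak covered 2298 bp, from 11002682 to 11004979, with a small peak of 383 bp beyond it. The widest stretch without a peak was 1912 bp in WT replicate 1 and 1682 bp in WT replicate 2, and it lay between the start and inner blocks in both.

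In dKO that stretch was largely filled. In dKO replicate 1 a single peak of 6726 bp ran from 11002245 to 11008970, the 4th widest of the 18048 peaks in its list. In dKO replicate 2 the inner peak measured 3612 bp, from 11001977 to 11005588, which ranked 77 by width among 17367 peaks. A small peak of 277 bp from 11006004 to 11006280 lay between this inner peak and the start peak of 2510 bp. The 2 dKO libraries thus differed in form, continuous in replicate 1 and in pieces in replicate 2, while each had little uncovered sequence. The widest gap was 562 bp in dKO replicate 1, at the far inner end beyond the long peak. In dKO replicate 2 it was 415 bp, between the inner peak and the small peak. Both were below the WT gaps, an order found in 3.58% of all domains. Domains with a single peak in every library have no gap and cannot show that order, and a share without them is not given here. Peaks filled 73.3% and 75.7% of the span from the first to the last peak in WT, and 92.1% and 90.6% in the dKO pair.

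Measured from the start with gaps of up to 500 bp allowed, the mark at Irs2 reached 1876 and 1838 bp into the gene in WT and 6255 and 6523 bp in the dKO pair. The mean reach was 1857 ± 26.9 bp and 6389 ± 190 bp, respectively (SD, n = 2 each), 3.44-fold farther in dKO. The size of this difference depends on how pieces are joined in dKO replicate 2. With gaps of up to 200 bp allowed the dKO mean was 4375.5 bp, and with peaks under 500 bp left out it was 4150 bp, the WT mean staying at 1857 bp in both. The outermost peak base inside the gene moved less, from 5953 and 6505 bp in WT to 7095 and 6523 bp in the dKO pair, where the nearest values were 18 bp apart. On the upstream side the mark ended 1634 and 1673 bp before the start in WT and 1552 and 1534 bp before it in dKO, slightly closer in dKO. These distances need a gene start, so no share of all domains with the same order is given for any of them here.

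Irs1 had the same 2-block layout, and its total did not separate the genotypes. Peaks covered 6551 and 7086 bp in WT replicates 1 and 2, and 7050 and 6543 bp in dKO replicates 1 and 2. The groups overlapped, averaging 6818.5 ± 378 bp and 6796.5 ± 359 bp, respectively (SD, n = 2 each). Divided by the library medians, the values were 6376.4 and 6588.9 bp in the WT pair and 7090.5 and 7246.7 bp in the dKO pair, so that both dKO libraries were then higher, as in 22.5% of all domains. The call on the total thus turns on whether the overall narrower mark of the dKO lists is taken out.

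With pieces counted as deposited, the start block of Irs1 was narrower in dKO and the inner block wider, and the inner direction turned when nearby pieces were merged. The split used here is at 3000 bp into the gene, a boundary set after the peaks had been seen, which falls in the stretch that no library covered at Irs1, from 82284241 to 82285838. Around the start, peaks covered 3058 and 3440 bp in the WT pair and 2993 and 2639 bp in the dKO pair. Farther than 3000 bp into the gene they covered 3493 and 3646 bp in the WT pair and 4057 and 3904 bp in the dKO pair. Neither pair of groups overlapped, although only 65 bp separated the nearest values around the start, and after scaling by the library medians the start values overlapped. The start block forms a union region, a merged set of overlapping peaks from the lists. Both dKO libraries were below both WT libraries in 39.1% of the 14943 union regions, so the start order is common in these lists. The inner block held 52.4 ± 1.32% of the covered base pairs in WT and 58.6 ± 1.50% in the dKO pair (SD, n = 2 each).

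Single pieces show where the Irs1 inner block differed. In WT it consisted of 4 peaks in each library, the widest of 1985 bp in replicate 1 and 1906 bp in replicate 2. In dKO replicate 1 it also had 4 peaks, of 2068, 370, 1381 and 238 bp going into the gene. In dKO replicate 2 a single peak of 3649 bp ran from 82280589 to 82284237, which ranked 71 by width among 17367 peaks, and a peak of 255 bp followed it. The outermost peak, of 518 and 418 bp in the WT pair and 238 bp in dKO replicate 1, was not called in dKO replicate 2. The direction of the inner block depends on joining: with peaks within 1000 bp merged first, the inner block averaged 4702 bp in the WT pair and 4460 bp in the dKO pair. The union region that leaves the outermost peak out, from 82280026 to 82284240, covered 2975 and 3228 bp in the WT pair and 3819 and 3904 bp in the dKO pair. Of all 14943 union regions, 4.17% had both dKO libraries above both WT libraries and 39.1% had them below.

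At the Irs1 start the main peak was 2207 bp in WT replicate 1 and 3440 bp in WT replicate 2, where it included the upstream shoulder. It was 2567 bp in dKO replicate 1 and 2639 bp in dKO replicate 2. The shoulder was called as separate small peaks in WT replicate 1 (365 and 486 bp) and dKO replicate 1 (426 bp), and dKO replicate 2 had none, so its mark ended 477 bp before the start against 1559 to 1847 bp in the other 3 libraries. The start difference of -433 bp was -256 bp without dKO replicate 2 and -242 bp without WT replicate 2. The continuous reach into Irs1 was 1744 and 1869 bp in the WT pair and 1768 and 2161 bp in the dKO pair, and these groups overlapped. Unlike at Irs2, the uncovered stretch between the blocks of Irs1 was present in all 4 libraries, at 2027 and 2104 bp in the WT pair and 1991 and 1601 bp in the dKO pair. Both dKO gaps were below both WT gaps here too, with 36 bp between the nearest values. That order was found in 3.58% of all domains.

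**Figure D2:**
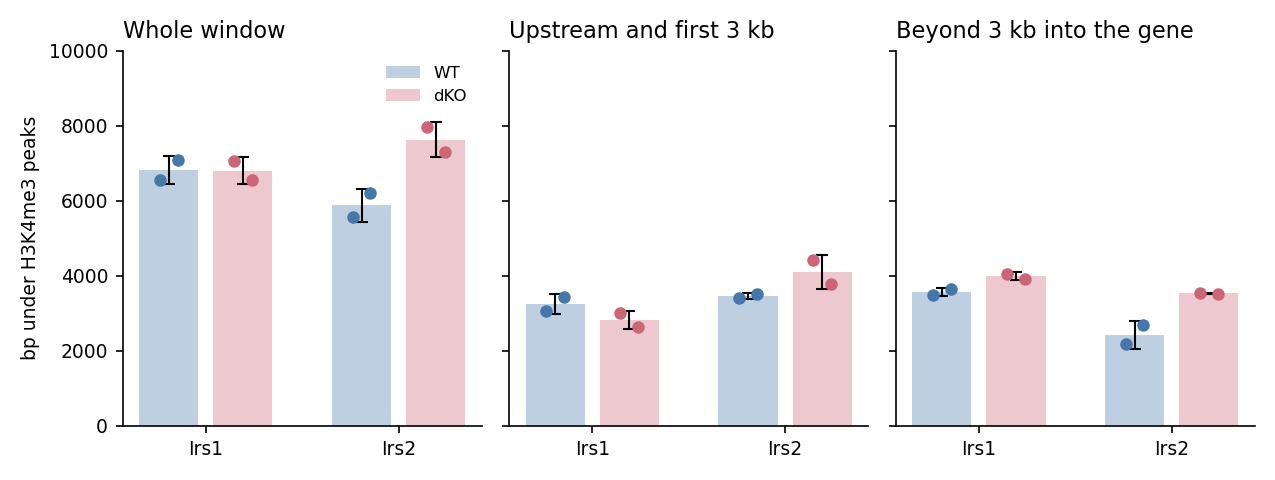
Base pairs under H3K4me3 peaks at Irs1 and Irs2 in the whole window (left), upstream and in the first 3000 bp (middle) and farther into the gene (right). Points are libraries, bars are means and error bars the SD (n = 2 each). With pieces as deposited, the inner values of both dKO libraries lie above both WT libraries at each gene, an order found in 4.17% of all union regions, while the Irs1 totals overlap. With peaks within 1000 bp merged, the Irs1 inner means turned, to 4702 bp in the WT pair and 4460 bp in the dKO pair. The boundary at 3000 bp was set after the peaks had been seen.

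Inside both genes the dKO libraries thus had more sequence under peaks on the scale as deposited. At Irs2 the inner values were 2165 and 2681 bp in the WT pair and 3533 and 3523 bp in the dKO pair, 1.46-fold higher in dKO. At Irs1 the inner ratio was 1.12, and its direction turned when peaks within 1000 bp were merged. Upstream and in the first 3000 bp, Irs2 also had more sequence under peaks in dKO, at 3396 and 3512 bp in the WT pair and 4429 and 3776 bp in the dKO pair. All 4 libraries covered Irs2 in full from the start to 1499 bp into the gene, and upstream the mark ended closer to the start in dKO. This excess therefore lay farther into the gene, where the stretch was filled, and not in a wider block at the start. The Irs2 figures for both blocks depend on the boundary, since the filled stretch lies across it. With the boundary at 2500 bp the inner difference was 1399.5 bp, at 3000 bp it was 1105 bp and at 3500 bp it was 605 bp. The start difference was 354, 648.5 and 1148.5 bp at the same boundaries.

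Base by base, 1224 bp of the Irs2 window were under a peak in both dKO libraries and in neither WT library, and the reverse held for 113 bp. The dKO bases lay in 4 runs, all inside the gene: 609 bp from 11004980 to 11005588, 277 bp from 11006004 to 11006280, 169 bp from 11006455 to 11006623 and 169 bp from 11002378 to 11002546. The first 3 of these fall between the WT blocks. The 2 WT runs, of 31 and 82 bp, lay upstream of the start. All 4 libraries shared 5233 bp at Irs2, in a run of 2303 bp over the start, a run of 900 bp upstream and a run of 2030 bp inside the gene.

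At Irs1 the counts were closer, with 455 bp in both dKO libraries only and 336 bp in both WT libraries only. The largest dKO run, of 370 bp from 82281631 to 82282000, lay 6000 to 6369 bp into the gene, between pieces of the inner block. The WT runs were 172 bp at the far end of the inner block, from 82279694 to 82279865, and 153 and 11 bp upstream of the start. None of the dKO bases of Irs1 lay around the start. The 4 libraries shared 4638 bp, of which 2207 bp formed a run over the start and 1783 bp a run inside the gene from 82282244 to 82284026. The shared blocks of the 2 genes were therefore alike in size and place: the start run extended 1744 bp into Irs1 and 1838 bp into Irs2, and the main inner run began 3974 bp into Irs1 and 3789 bp into Irs2.

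At Irs2 the best-scored peak stood nearer the top of the list in dKO. The best-scored Irs2 peak ranked at 28.2% and 39.9% of the list in WT replicates 1 and 2, and at 4.38% and 16.2% in dKO replicates 1 and 2, where 0% is the top. Both dKO ranks were nearer the top, an order found in 9.81% of all domains. In dKO replicate 1 this was the long peak, with rank 791 of 18048, so start and inner signal share a single score there. In dKO replicate 2 it was the start peak alone, with rank 2807 of 17367. The median best rank of domains of like size, defined below, was 23.3% and 23.0% in the WT pair and 24.3% and 19.6% in the dKO pair.

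The best-scored Irs1 peak was the start peak in every library. It ranked at 19.3% and 32.1% in the WT pair and at 29.5% and 53.3% in the dKO pair, and these groups overlapped. Inner pieces called apart from the start peak ranked at 54.0% or farther from the top. The best inner peak of Irs1 ranked at 72.1% and 68.1% in the WT pair and at 69.6% and 68.3% in the dKO pair, a narrow range in which the groups overlapped. The inner peak of Irs2 ranked at 65.2% and 66.4% in the WT pair and at 54.0% in dKO replicate 2. In dKO replicate 1 the inner block of Irs2 was part of the long peak, at 4.38%. The upstream peak of Irs2 ranked at 49.4% in WT replicate 1 and was not separate in WT replicate 2, and the dKO replicates had it at 46.0% and 50.8%. The small peak of 277 bp between the blocks of Irs2 in dKO replicate 2 ranked at 91.5%, while the long peak of dKO replicate 1 that covers the same bases ranked at 4.38%. At Irs1 the peak of 370 bp in dKO replicate 1 ranked at 95.2%, and the peak of dKO replicate 2 over the same bases at 68.3%.

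**Figure D3:**
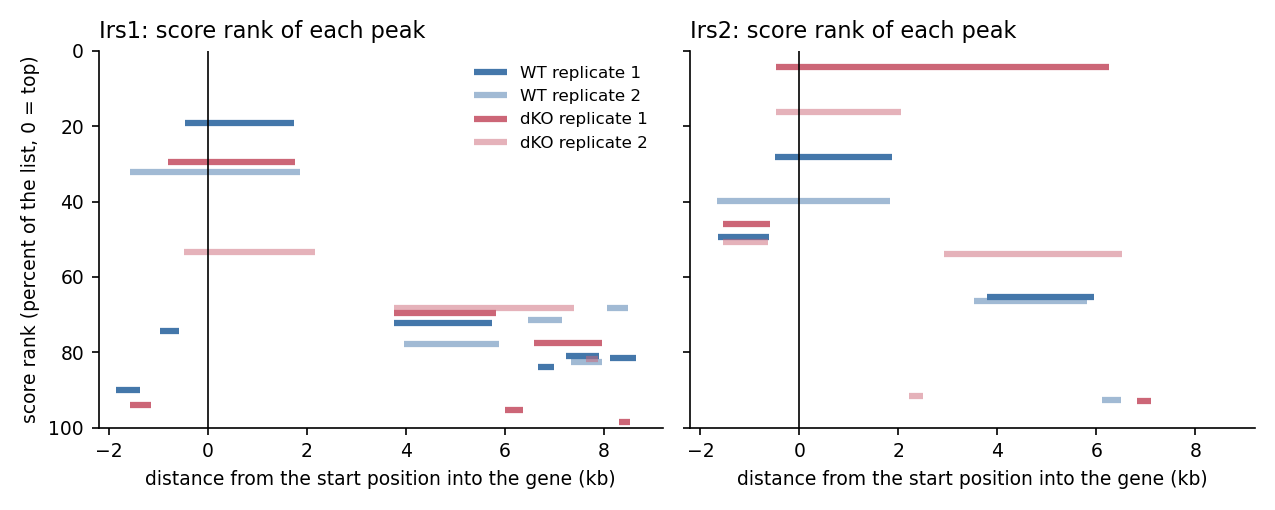
Score rank of each peak within its own list (0% is the top) against the distance from the start position into the gene in kb, for Irs1 and Irs2. Each bar is a peak at its true length, dark for replicate 1 and pale for replicate 2, WT in blue and dKO in red. The Irs2 start peaks of dKO lie at 4.38% and 16.2%, above those of WT at 28.2% and 39.9%, and the Irs1 start peaks of the groups overlap.

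With peaks joined within 2000 bp, both loci belong to the broadest H3K4me3 domains of these brains. So joined, the Irs1 domain ran from 82279348 to 82289847 and the Irs2 domain from 11001405 to 11010173. The Irs1 domain rests on that join, since no library covered the 1598 bp from 82284241 to 82285838. With a join of 1000 bp its start and inner blocks would be separate domains, and their ranks and like-size classes are not given here. The Irs2 blocks lay 1912 and 1682 bp apart in the WT pair, so with a join of 1000 bp only dKO peaks would link them. By mean base pairs over the 4 libraries the Irs1 and Irs2 domains ranked 23 and 24 of 13420, at 6807.5 and 6753.75 bp. The Irs2 mean, which sets its rank and its class of like size, includes the higher dKO values (7630.5 bp against 5877 bp in WT). For each gene, the domains with a mean between 0.7 and 1.4 times its own were taken as domains of like size, 75 for Irs1 and 78 for Irs2, each set including the other gene. Their median ratio of dKO to WT base pairs was 0.913 for Irs1 and 0.905 for Irs2, near the 0.913 of all domains. Both dKO libraries were above both WT libraries in 4.0% of the domains of like size to Irs1 and in 2.56% of those of like size to Irs2.

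Against that class the Irs2 ratio of 1.30 was the highest, and none of the 78 other domains exceeded it. Over all domains 80 of 13420 (0.596%) had a higher ratio. The Irs1 ratio of 0.997 was exceeded by 10 of 75 domains of like size and by 18.9% of all domains. These positions describe the loci and are no test, since Irs2 and Irs1 were picked on this contrast.

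**Figure D4:**
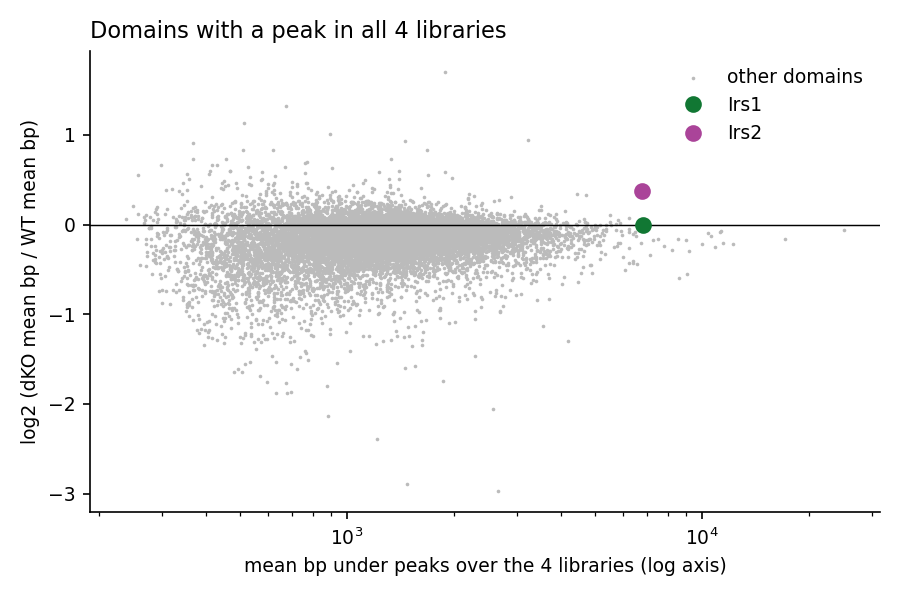
The log2 ratio of dKO to WT mean base pairs under peaks against the mean over the 4 libraries (log axis), for the 13420 domains with a peak in all 4 libraries. Grey points are other domains. Irs2 lies at 0.38 and Irs1 at 0.00, both above the median of -0.13.

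The joining of the blocks was compared over all domains too. The longest stretch with no gap over 500 bp was 3511 and 3512 bp at Irs2 in WT, and 7808 and 8058 bp in the dKO pair, a 2.26-fold difference. A larger ratio occurred in 5 of 13420 domains (0.037%) and in none of the 78 of like size, whose median ratio was 0.943. Domains with a single peak in every library have no blocks to join, and a share without them is not given here. In dKO replicate 2 this stretch bridges the gap of 415 bp, and with gaps of up to 200 bp it was 4031 bp there and 7808 bp in dKO replicate 1, a ratio of 1.69 exceeded by 13 domains. With gaps of up to 1000 bp the ratio was 2.38, exceeded by 5. At Irs1 the longest stretch was the start block in WT, at 3592 and 3440 bp, but the inner block in dKO, at 4785 and 4135 bp, so the ratio of 1.27 compares different blocks. It was 1.02 with gaps of up to 200 bp and 0.949 with gaps of up to 1000 bp, below 1. Both dKO libraries were above both WT libraries by this measure in 3.94% of all domains. By bases covered in both dKO libraries and in neither WT library, 1 of the 13419 other domains had as many as the 1224 bp of Irs2, with 1518 bp, and 10 had as many as the 455 bp of Irs1. Narrow domains cannot reach 1224 bp, and the median domain held 1262 and 1146 bp in the dKO pair. Among domains of like size, 0 of 78 had as many as Irs2, and 1 of 75 as many as Irs1, which was Irs2 itself. More such bases than of the reverse kind occurred in 10.6% of all domains, and in 15.4% and 14.7% of those of like size to Irs2 and Irs1.

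**Figure D5:**
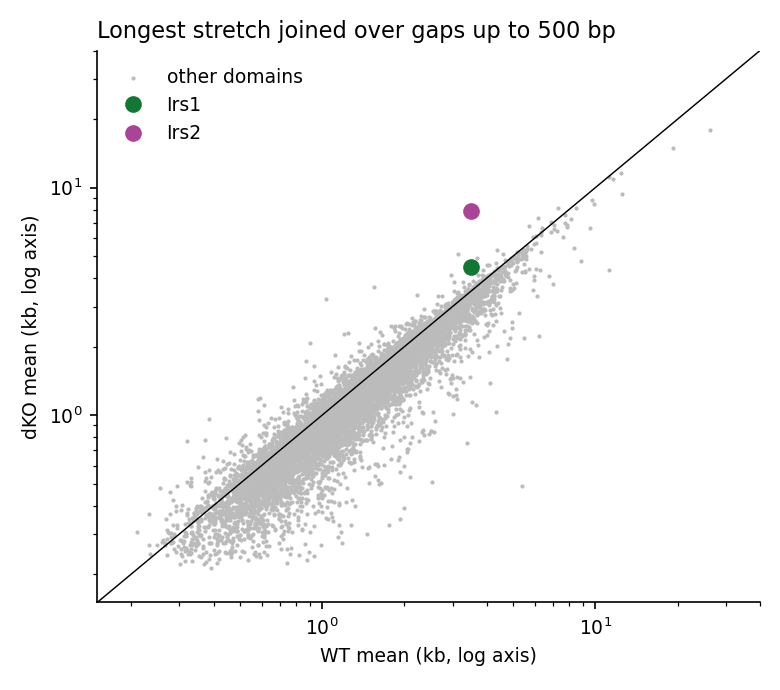
Longest stretch of H3K4me3 with no gap over 500 bp, dKO mean against WT mean in kb on log axes, for the same 13420 domains; the line marks equality. Irs2, at 3511.5 bp in the WT pair and 7933 bp in the dKO pair, lies far above the line, and Irs1 lies at 3516 and 4460 bp, measured on the start block in WT and the inner block in dKO.

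A fit across all regions gives each change an error, on a scale that takes out the narrower mark of the dKO lists. Peaks that overlapped were merged into union regions, and base pairs were compared on a log2 scale centred on the median of each library (limma). The Irs2 region from 11001977 to 11010173 had a log2 change of 0.49 (SE 0.077), and 134 of 14943 regions (0.897%) had a higher one. The inner Irs1 region from 82280026 to 82284240 had a log2 change of 0.46 (SE 0.083), exceeded by 170 regions (1.14%). The Irs1 start region from 82285839 to 82289847 had a log2 change of -0.06 (SE 0.076), smaller than its error. Without centring the 3 values were 0.35, 0.32 and -0.21, and with lists limited to the length of the shortest the Irs1 start value was 0.05. At a Benjamini-Hochberg adjusted p under 0.05, limma called 0.00669% of regions wider (1 region) and 0.0% narrower, and 421 and 725 regions had an unadjusted p under 0.05. The called region was not at Irs1 or Irs2.

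Likeness to other domains was measured as the Euclidean distance between the log2 base pairs of the 4 libraries. With peaks joined within 2000 bp, the domain nearest to Irs2 was that of Irs1, at 0.386. The next was on chromosome 19 from 5796851 to 5803553, at 0.411, with 6170 and 5902 bp in the WT pair and 6389 and 6348 bp in the dKO pair. The domain nearest to Irs1 was on chromosome 8 from 94877271 to 94887774 at a distance of 0.075, with 6702 and 7415 bp in the WT pair and 7136 and 6544 bp in the dKO pair. A domain on chromosome 18 from 55144996 to 55152989 followed for both Irs1 (0.110) and Irs2 (0.416), and a domain on chromosome 17 from 34253559 to 34260784 came next for Irs1 (0.163).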

How the data were processed

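H3K4me3 peak lists of 4 libraries were used. The submitters' processing notes list MACS2 2.1.1.20160309, bedtools, R 2.14.0, SAMtools, Picard 2.6.0 and BWA 0.7.12-r1039, on build mm9. Roles, thresholds and the use of input are not given in the sources used here, and the 4 input libraries were not analysed here. The deposited score of each peak has no named scale and served only to rank peaks within a list. Depth is unknown, so no interval for counting error was attached. A deeper or cleaner library gives wider and more joined peaks.

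Peak bases were clipped to the windows and counted from 1 with Python 3.11.15, pandas 2.3.3 and numpy 2.4.6. Base pairs in 14943 union regions were fitted with limma 3.58.1 (R 4.3.3, variance trend), which was tested on simulated data. The limma p-values set the difference between the groups against the spread between libraries, and the labels name no animal for a library. The members, gene starts and lists were chosen with earlier results of these data known. Other domains were named by a rule, the 3 nearest to each member. An insulin pathway list was not tested, for want of gene positions on mm9. Plots used matplotlib 3.10.9.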

Additional observations from a re-analysis of the deposited data

How the results depend on the processing

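Of 238 alternative values of 23 results, 193 stayed within the spread between replicates (counts and shares within 1.5 times, log2 changes within their SE). Some of the 193 had no room to move. Extended windows and peaks wholly inside the window left every value as it was, and so did other boundaries for the Irs1 blocks. The sign differed in 11 alternative values, of which 3 concern values whose groups did not overlap (the Irs1 inner block and longest stretch). The others were the Irs1 total (5 values, around a difference of -22 bp), the Irs1 continuous reach (-38.5 bp without dKO replicate 2), the Irs2 pieces and the log2 change of the Irs1 start region (0.05 with limited lists). Chosen after the data were seen, 113 in all, were every value of the 2 blocks and the longest stretch, merged or short peaks and other windows for reach, pieces and rank where not planned, limited lists in limma, and libraries left out for the domain shares. Differences are dKO minus WT. With peaks within 1000 bp merged, the Irs1 inner difference went from 411 to -242 bp, the Irs1 total from -22 to -774.5 bp, the Irs2 total from 1753.5 to 2266.5 bp, the Irs2 start block from 648.5 to 1032.5 bp, Irs2 pieces from 0.5 to -1, the Irs2 continuous reach from 4532 to 4952 bp, and the longest stretch from 944 to -242 bp at Irs1 and from 4421.5 to 4841.5 bp at Irs2. That reach was 2293 bp with peaks under 500 bp left out, 2518.5 bp with gaps of up to 200 bp and 4952 bp with gaps of up to 1000 bp. In the same 3 settings the longest stretch differed by 284.5, 61.5 and -242 bp at Irs1 and by 2198.5, 2408 and 4841.5 bp at Irs2. Division by library medians gave 685.9 bp (total), 807.0 bp (inner) and -121.1 bp (start) at Irs1, and 2460.2, 1427.5 and 1032.7 bp at Irs2. Lists limited to the shortest length gave 292 bp for the Irs1 inner block. With the boundary at 2500 bp the Irs2 inner difference was 1399.5 bp, and with it at 3500 bp it was 605 bp and the start difference 1148.5 bp. The Irs2 score rank difference of -23.8 percentage points was -4.86 for the widest piece, since in dKO replicate 2 that is the inner peak. The share of domains with both dKO libraries above was 3.48%, but 22.5% after division by medians and 6.57% to 19.0% with a library left out, and the share below was 41.7%, but 17.3% and 48.3% to 71.8%. Regions called wider by limma numbered 1, and 0 without centring and with 100 bp added to regions found in 2 libraries or more, and 0 to 3 with a library left out (0 without dKO replicate 2, 3 without dKO replicate 1). Regions called narrower numbered 0, and 0 to 106 with a library left out, the 106 without dKO replicate 1, where the single dKO library left is taken to vary as the WT pair does. Same-numbered libraries did not deviate together (r = -0.0587 over 14943 regions, across regions and with no test). With the replicate number as a block, 1 region was wider and 0 narrower, and the log2 change at Irs2 stayed at 0.49 (SE 0.097). With a library left out, the Irs2 total difference ranged from 1422 to 2085 bp, its reach from 4398 to 4666 bp, the Irs1 inner difference from 334.5 to 487.5 bp and the Irs1 total from -289.5 to 245.5 bp.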
